A study of Mus musculus with 6 samples.

Results

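The aminoacyl-tRNA synthetase genes of the newborn mouse ovary were followed in ovaries with Hnrnpl targeted in germ cells and in wild type ovaries. Members were taken by symbol, as every gene named with the letter of an amino acid followed by "ars", plus Eprs, with or without a closing 1, 2, 3, a, b or l2. This rule found 38 of the 25164 genes of the deposited table, and no measured value entered it. The 18 symbols that end in 2 name the mitochondrial enzymes, with Tarsl2 as an exception, and the other 20 name the cytosolic ones. Tarsl2 encodes a paralog of the cytosolic threonine enzyme, so values are also given with it moved.

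Libraries were made from whole ovaries of C57BL/6 mice at day 1. The 3 libraries called cKO here carry the genotype hnRNPL flox/flox;Stra8-cre, in which floxed Hnrnpl is combined with a Cre transgene under the germ cell promoter Stra8, and the other 3 are labelled wild type (WT). The labels do not say whether the wild type animals carried a floxed allele or the transgene. The protocol text also speaks of a hormone challenge of the animals, without naming it. Cre under Stra8 acts in germ cells, whereas synthetases are made in every cell, so a value from whole ovary mixes targeted with untargeted cells. The labels do not tie each library to an animal or pool of its own, so p-values measure only the spread between these libraries.

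An aminoacyl-tRNA synthetase joins an amino acid to the tRNAs that carry its codons, and so sets the meaning of the genetic code. Cytosol and mitochondria each need a set of these enzymes, and both sets are encoded in the nucleus. The enzymes fall into class I and class II, whose catalytic domains are unrelated. Several cytosolic enzymes are held in a multi-synthetase complex by the scaffold proteins Aimp1, Aimp2 and Eef1e1. Many cytosolic synthetase genes are known targets of ATF4, the transcription factor of the amino acid starvation response.

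ATF4 binds as a dimer to elements with the core TGATGCAA, and this word was looked up around the annotated start sites of the members in RefSeq's sequences of GRCm38.p6. The table of windows, from 250 bases before to 50 bases after each start, held 28 of the 38 genes. Among those not matched were Cars, Hars, Hars2, Lars, Nars, Pars2, Rars, Vars and Wars. On either strand the word TGATGCAA lay in the windows of Aars, Iars, Tars and Yars, that is in 4 of 13 matched cytosolic genes and in 0 of the 15 matched genes ending in 2, against 0.895% of all 32851 windows. With the looser word TGATGNAA, which includes the first, Gars was added, against 3.97% of all windows. These are matches of letters, not sites of binding.

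The windows of the 4 genes with the word are shown from 120 bases before to 30 bases after the start, 5′ to 3′ on the strand of the gene, beside those of Mars1 and Sars, whose levels differed most between the groups among the matched members without it. Capitals mark TGATGCAA or its reverse complement TTGCATCA.
Iars (chr13:49682010-49682159, plus strand): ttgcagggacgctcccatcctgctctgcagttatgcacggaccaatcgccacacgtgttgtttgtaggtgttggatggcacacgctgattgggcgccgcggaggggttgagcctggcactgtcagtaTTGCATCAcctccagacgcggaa
Aars (chr8:111033722-111033871, plus strand): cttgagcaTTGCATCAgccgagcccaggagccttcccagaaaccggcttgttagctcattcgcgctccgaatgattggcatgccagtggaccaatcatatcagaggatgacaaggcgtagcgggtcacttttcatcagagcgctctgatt
Tars (chr15:11399629-11399778, minus strand): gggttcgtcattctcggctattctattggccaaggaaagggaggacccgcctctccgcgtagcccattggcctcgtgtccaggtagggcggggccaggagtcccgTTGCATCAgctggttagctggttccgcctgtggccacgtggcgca
Yars (chr4:129189783-129189932, plus strand): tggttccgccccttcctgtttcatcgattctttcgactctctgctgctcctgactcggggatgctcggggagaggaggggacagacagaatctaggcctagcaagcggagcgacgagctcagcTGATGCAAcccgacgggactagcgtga
Mars1 (chr10:127311757-127311906, minus strand): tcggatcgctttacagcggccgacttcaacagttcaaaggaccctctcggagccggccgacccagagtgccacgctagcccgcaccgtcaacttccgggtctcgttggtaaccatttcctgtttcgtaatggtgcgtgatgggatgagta
Sars (chr3:108445230-108445379, minus strand): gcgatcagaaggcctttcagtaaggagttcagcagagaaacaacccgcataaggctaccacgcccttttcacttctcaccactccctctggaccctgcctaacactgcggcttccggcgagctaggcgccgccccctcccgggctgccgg
In Iars the word covered bases 8 to 15 after the start and in Yars bases 4 to 11, so both lay just inside a transcript from that start. In Tars it lay at -15 to -8 and in Aars at -112 to -105. The RefSeq genes of Yars and Aars begin upstream of the printed windows, at 129189734 and 111027778, so these 2 windows belong to later starts.

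Levels are given as FPKM, fragments scaled to transcript length and library size, so they can be compared between genes. The shallowest library by estimate was cKO replicate 1, with 7200000 fragments, and the deepest WT replicate 1, with 14400000, at which 1 FPKM of a 2 kb transcript stands for 14.4 and 28.8 fragments. The values of cKO replicate 1 summed to 335667 FPKM, against 223845 to 246121 in the other 5 libraries, and its scaling factor by the median of ratios was 1.16, against 0.956 to 0.999. Hnrnpl itself stood at 100.5, 81.5 and 85.2 FPKM in cKO and at 104.1, 93.8 and 101.9 FPKM in WT, a weak check of the labels in a tissue with untargeted cells (limma adjusted p = 0.571). After median-of-ratios scaling its values were 84.2 to 87.1 in cKO and 95.1 to 106.6 in WT, without overlap (limma adjusted p = 0.167).

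All 38 members had a mean of at least 1 FPKM over the 6 libraries, the filter for testing, as had 12442 genes in all. The cytosolic genes had means from 6.49 FPKM (Cars) to 28.3 FPKM (Kars) with a median of 15.1 FPKM. Genes ending in 2 were mostly lower, with a median of 4.24 FPKM and Wars2, the mitochondrial tryptophan enzyme, at the bottom with 1.51 FPKM. Kars and Gars, at the top of the cytosolic set with Eprs, each encode both the cytosolic and the mitochondrial enzyme for lysine and for glycine. Eprs encodes 1 protein that charges both glutamate and proline. Iars2 and Fars2 were the only genes ending in 2, besides Lars2, with every library above 10 FPKM.

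**Figure D1:**
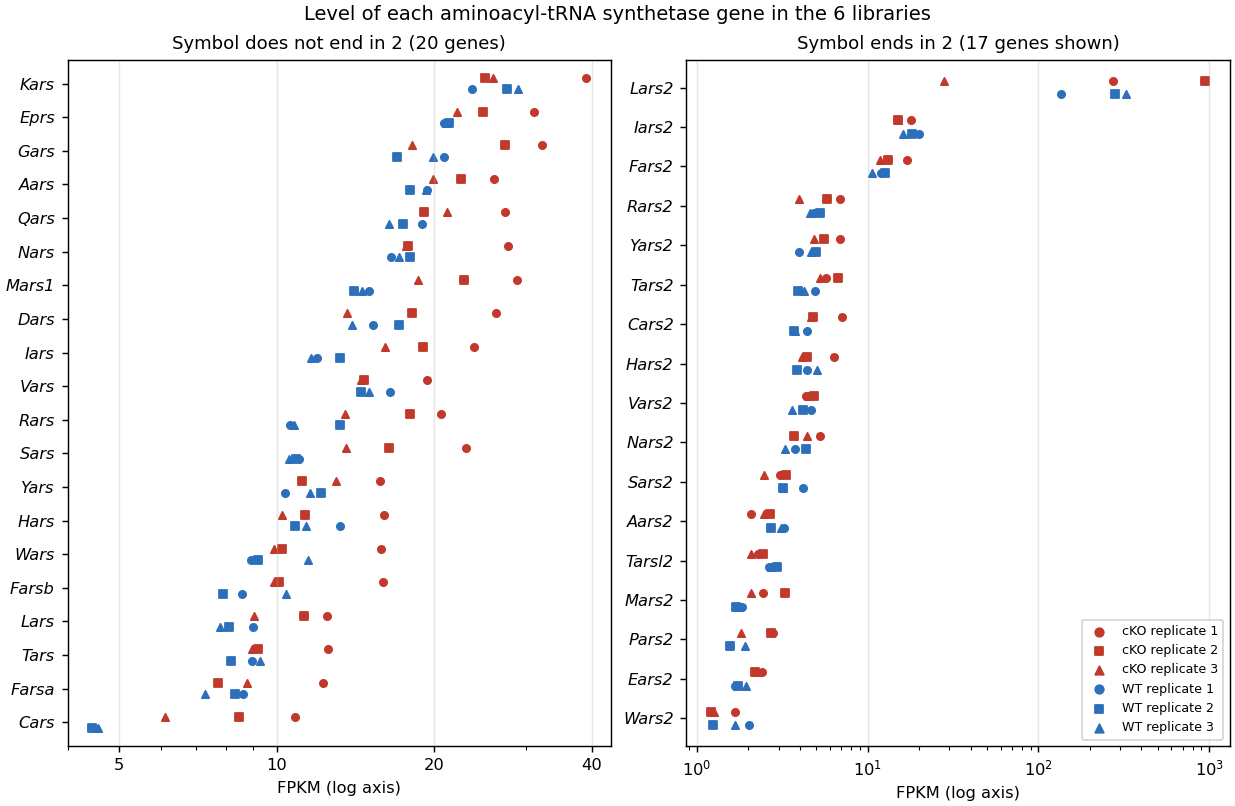
FPKM (log axis) of the named synthetase genes in each library, ordered by mean level; red points are cKO, blue points WT, and the shape gives the replicate number. The cKO replicate 1 point is the rightmost for all 20 genes on the left, and Lars2 is spread from 27.9 to 944.1 FPKM on the right.

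The comparison of cKO with WT asked how synthetase transcripts differ in ovaries where Hnrnpl was targeted. All 20 cytosolic genes had a higher mean log2(FPKM + 1) in cKO, and after rescaling of the libraries, by the median of ratios or by quantiles, 18 of them did, all except Hars and Vars. Cars, Mars1, Sars and Iars had the largest differences, with cKO means 1.60 to 1.89 times those of WT. None of the 38 genes passed over all genes with FPKM as deposited (limma, Benjamini-Hochberg adjusted p under 0.05). After median-of-ratios scaling Iars and Mars1 rose. Genes ending in 2 went both ways, 12 with a positive and 6 with a negative difference.

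In numbers, 0 of 20 cytosolic genes were called higher or lower as deposited, as were 0.0482% and 0.0723% of all tested genes. At an unadjusted p under 0.05 (limma), 6 cytosolic genes were higher and 0 lower, against 9.89% and 4.26% of all tested genes. All cKO values lay above all WT values in 9 of the 20 and below in 0, against 15.5% and 7.03% of tested genes. The median difference of the cytosolic genes was 0.27 (log2), against 0.08 for all tested genes, of which 65.2% were positive.

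After median-of-ratios scaling, which removes the higher overall level of cKO replicate 1, the median of all tested genes was 0.01 and 52.4% were positive. The cytosolic median was then 0.20, with 18 positive and 2 negative. Called higher were 2 of 20, against 0.812% of tested genes, and lower 0, against 0.49%. At an unadjusted p under 0.05, 8 were higher and 0 lower, against 10.2% and 8.82%, and in 9 all cKO values lay above all WT values and in 0 below, against 13.4% and 12.2%. The calls of Iars and Mars1 ended when most single libraries were left out: with the same scaling, 0 cytosolic genes were called without cKO replicate 1, cKO replicate 2 or any 1 of the WT libraries, and 4 (Cars, Iars, Mars1 and Sars) without cKO replicate 3. Left-out fits have fewer samples.

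**Figure D2:**
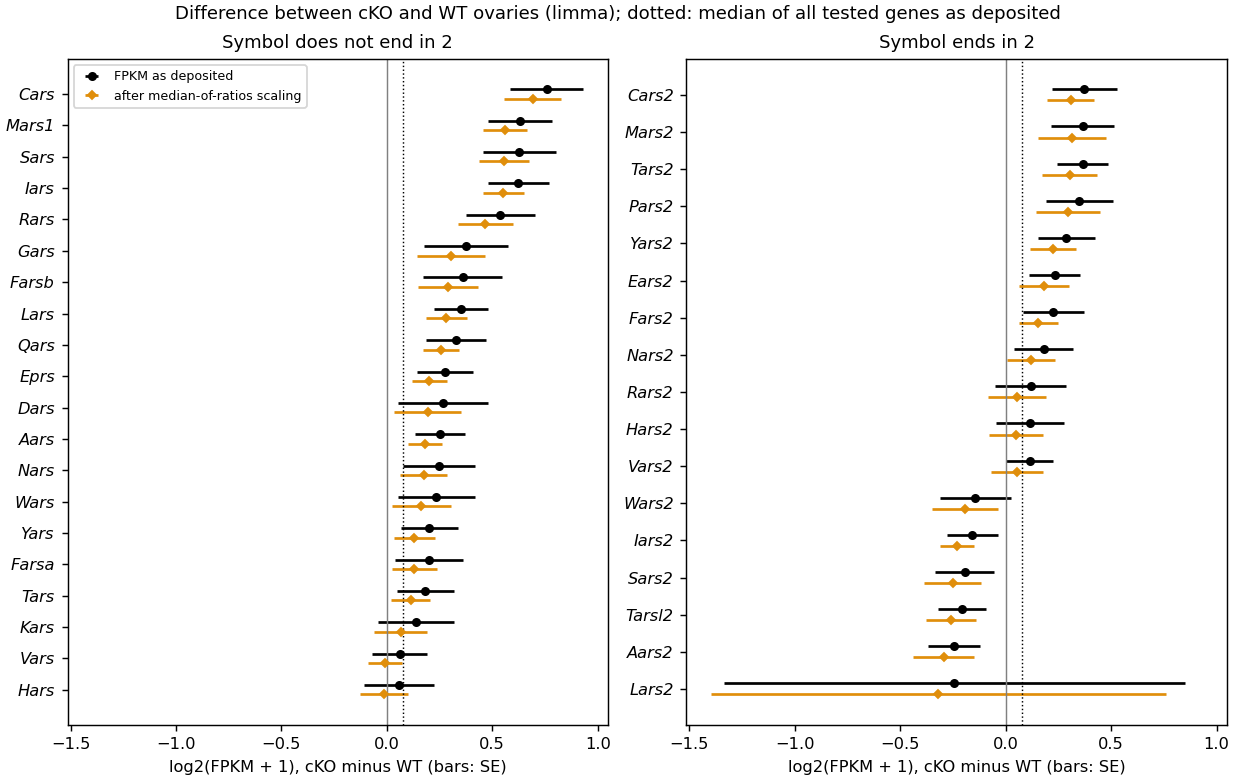
Difference in log2(FPKM + 1) between cKO and WT for the named genes, with the SE from limma, for FPKM as deposited (black) and after median-of-ratios scaling (orange). Cars leads the cytosolic genes at 0.76, and Hars and Vars change sign with scaling.

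The libraries of the cKO group were not alike. For every one of the 20 cytosolic genes cKO replicate 1 held the highest of the 6 values. Relative to the mean of the WT libraries, the median cytosolic gene stood at 0.62, 0.19 and 0.09 (log2) in cKO replicates 1, 2 and 3, and all tested genes at 0.23, -0.0049 and 0.0045. After scaling the cytosolic values were 0.39, 0.21 and 0.09, and the WT libraries lay between -0.02 and 0.03. Above the WT mean after scaling were 20, 15 and 15 of the 20 genes, against 6514, 6466 and 6404 of the 12442 tested genes. Without cKO replicate 1 the cytosolic median was 0.15 with FPKM as deposited, and 17 of 20 differences were positive. The share of positive differences over all tested genes in that fit is not given here.

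**Figure D3:**
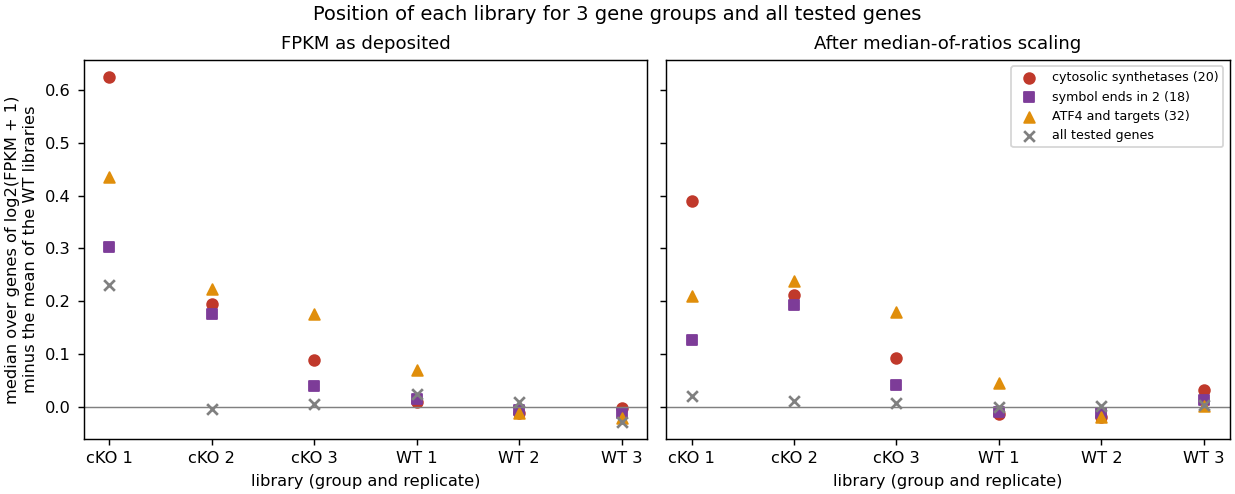
Median over the genes of each group of log2(FPKM + 1) minus the mean of the WT libraries, per library, as deposited and after median-of-ratios scaling. Cytosolic synthetases reach 0.62 in cKO replicate 1 as deposited and 0.39 after scaling, and in cKO replicate 3 they stand at 0.09 in both.

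Markers of several cell types also differed in summed level. Of 10 germ cell markers (among them Ddx4, Dazl and Tex15) 8 had a positive difference, against 65.2% of all tested genes. Their summed level was 187.8 to 338.2 FPKM in cKO and 147.1 to 158.1 in WT. After median-of-ratios scaling these sums were 191.9 to 290.4 and 147.9 to 160.3. Stroma markers summed to 591.2 to 656.7 and 783.3 to 806.4 FPKM, with 0 of 6 positive, and surface epithelium markers to 63.4 to 92.8 and 114.9 to 134.5 FPKM, with 0 of 5 positive. Endothelial markers (0 of 6 positive) summed to 54.6 to 63.4 and 68.7 to 84.6 FPKM, while the 8 pregranulosa markers overlapped, at 385.3 to 480.1 and 391.3 to 405.5 FPKM. Called as deposited were 0 germ cell, 0 stroma and 1 surface epithelium markers, and after scaling 4, 1 and 4. Of the endothelial and pregranulosa markers 0 were called in either setting. Of all tested genes 0.0482% were called higher and 0.0723% lower as deposited, and 0.812% and 0.49% after scaling. Every marker of these 5 lists had a value above 0 in at least 1 library. The blood cell marker Ptprc, the testis marker Dhh and the mesonephric marker Pax2 stayed below 1 FPKM in each library. In whole ovary, more or fewer cells of a type cannot be told apart from more or less RNA per cell, and the part of composition in the synthetase values was not tested.

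Among class I enzymes of the cytosol, Cars charges cysteine. It stood at 10.8, 8.48 and 6.13 FPKM in cKO replicates 1, 2 and 3 and at 4.47, 4.44 and 4.56 FPKM in WT. The groups did not overlap, and the WT values were nearly level while those of cKO spread widely. The log2 difference of 0.76 (SE 0.17) did not pass (limma adjusted p = 0.148; over the alternatives it ran from 0.0173 to 0.423). A stretch of 214 bases of a Cars transcript is identical to the processed pseudogene Gm15580, where reads could be shared.

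Iars, the isoleucine enzyme and a member of the multi-synthetase complex, lies on chromosome 13 from 49682130 to 49734267 (GRCm38). It stood at 23.8, 19.1 and 16.1 FPKM in cKO and at 11.97, 13.2 and 11.6 FPKM in WT, without overlap. The difference was 0.62 (SE 0.15, limma adjusted p = 0.151) as deposited and 0.55 after scaling (limma adjusted p = 0.0455). Its transcript shares 1656 bases at 96.0% identity with the processed pseudogene Gm4849, so its reads may be split between them.

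Mars1 charges methionine, for the initiator tRNA as well as for elongation, and lies on chromosome 10 from 127296221 to 127311786. Its levels were 28.8, 22.8 and 18.7 FPKM in cKO and 14.99, 14.1 and 14.6 FPKM in WT. Again the lowest cKO library stood above the highest WT library. The difference of 0.63 (SE 0.15, limma adjusted p = 0.162) was 0.56 after scaling, close to the threshold (limma adjusted p = 0.0496).

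Rars, for arginine, and Lars, for leucine, are further class I members of the complex. Rars stood at 20.6, 17.99 and 13.5 FPKM in cKO and at 10.6, 13.2 and 10.8 FPKM in WT (difference 0.54, SE 0.16, limma adjusted p = 0.227). Its groups were separated only by the gap between 13.5 in cKO replicate 3 and 13.2 in WT replicate 2. For Lars the values were 12.5, 11.3 and 9.07 FPKM against 9.03, 8.10 and 7.79 FPKM (difference 0.35, SE 0.13, limma adjusted p = 0.293), with a gap as narrow.

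Qars, the glutamine enzyme, stood at 27.4, 19.1 and 21.2 FPKM in cKO and at 18.9, 17.4 and 16.4 FPKM in WT (limma adjusted p = 0.354). Eprs was measured at 31.0, 24.8 and 22.1 FPKM against 20.9, 21.3 and 21.1 FPKM (difference 0.27, SE 0.13, limma adjusted p = 0.394). In both genes the groups did not overlap, and the WT libraries of Eprs lay close together, between 20.9 and 21.3 FPKM. Vars, Wars and Yars, the class I enzymes for valine, tryptophan and tyrosine outside the list of complex members, had overlapping groups and differences of 0.06, 0.23 and 0.20.

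Among class II enzymes Sars, which charges serine and also the tRNA for selenocysteine, had the largest difference. It stood at 23.1, 16.4 and 13.6 FPKM in cKO and at 11.03, 10.9 and 10.5 FPKM in WT. The groups did not overlap, and the difference was 0.63 (SE 0.17) as deposited (limma adjusted p = 0.201) and 0.56 after scaling (limma adjusted p = 0.0705).

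Aars, the alanine enzyme, was measured at 26.01, 22.5 and 19.9 FPKM in cKO and at 19.3, 18.02 and 19.3 FPKM in WT (difference 0.25, SE 0.12, limma adjusted p = 0.387). A stretch of 1326 bases of its longest transcript also belongs to Exosc6. Gars stood at 32.1, 27.3 and 18.2 FPKM against 20.9, 16.96 and 19.9 FPKM, so that cKO replicate 3 fell inside the WT range (difference 0.38, SE 0.20, limma adjusted p = 0.429). Farsb, the beta subunit of the phenylalanine enzyme, stood at 16, 10.1 and 9.90 FPKM against 8.57, 7.91 and 10.4 FPKM, also with overlap (difference 0.36, SE 0.19, limma adjusted p = 0.424).

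Kars had values of 39.0, 25.0 and 25.9 FPKM in cKO and 23.6, 27.5 and 28.9 FPKM in WT. Apart from cKO replicate 1 its groups lay over each other, and its difference of 0.14 (SE 0.18) became -0.06 without that library. The other class II genes, Dars, Farsa, Hars, Nars and Tars, had overlapping groups and differences from 0.06 (Hars) to 0.26 (Dars), with limma adjusted p from 0.527 to 0.886.

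By class, the 9 cytosolic class I genes had a median difference of 0.35 and the 10 class II genes one of 0.25, Eprs being both. The 8 synthetases of the multi-synthetase complex had a median of 0.34, and the 12 outside it one of 0.24. After scaling these medians were 0.28, 0.18, 0.27 and 0.17, beside 0.01 for all tested genes. The difference between classes, or between complex members and the rest, was not tested.

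Of the genes ending in 2, 0 of 18 were called higher or lower, as deposited or scaled. At an unadjusted p under 0.05 (limma), 3 were higher and 0 lower as deposited (9.89% and 4.26% of all tested genes), and 2 and 1 after scaling (10.2% and 8.82%). All cKO values lay above all WT values in 5 genes and below in 2 (15.5% and 7.03% of tested genes), and in 4 and 3 after scaling (13.4% and 12.2%). Their median difference was 0.15 as deposited and 0.09 after scaling. With Tarsl2 counted among the cytosolic genes the medians were 0.18 for the 17 mitochondrial genes and 0.26 for the 21 others. A pseudocount of 0.1 FPKM, which shrinks low genes less, gave medians of 0.18 for all genes ending in 2 and 0.28 for the cytosolic genes without Tarsl2.

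Tars2, the mitochondrial threonine enzyme, stood at 5.72, 6.68 and 5.24 FPKM in cKO and at 4.88, 3.90 and 4.23 FPKM in WT, without overlap (difference 0.37, SE 0.12, limma adjusted p = 0.256). Mars2 was measured at 2.43, 3.25 and 2.08 FPKM against 1.84, 1.68 and 1.75 FPKM (difference 0.37, SE 0.15, limma adjusted p = 0.335). Cars2 stood at 7.05, 4.77 and 4.64 FPKM against 4.40, 3.71 and 3.74 FPKM (difference 0.37, SE 0.15, limma adjusted p = 0.337). With a pseudocount of 0.1 FPKM the differences of Tars2, Mars2 and Cars2 were 0.43, 0.51 and 0.44. In these 3 genes for threonine, methionine and cysteine every cKO library was above every WT library.

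Pars2, for proline, had values of 2.77, 2.72 and 1.80 FPKM in cKO and 1.57, 1.56 and 1.90 FPKM in WT, and cKO replicate 3 lay below WT replicate 3 (limma adjusted p = 0.369). Yars2, for tyrosine, stood at 6.85, 5.56 and 4.87 FPKM against 3.96, 4.94 and 4.64 FPKM, with a similar overlap (limma adjusted p = 0.379). Ears2, for glutamate, had low but separated groups, with 2.17 to 2.41 FPKM against 1.68 to 1.93 FPKM.

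Negative differences were measured for Aars2, Iars2, Lars2, Sars2, Wars2 and Tarsl2. Tarsl2 stood at 2.27, 2.44 and 2.06 FPKM in cKO and at 2.64, 2.92 and 2.69 FPKM in WT, without overlap (difference -0.21, SE 0.11, limma adjusted p = 0.446). Aars2 stood at 2.06, 2.66 and 2.46 FPKM against 3.21, 2.73 and 3.11 FPKM, the other gene whose cKO values all lay below those of WT (difference -0.24, SE 0.12, limma adjusted p = 0.412). The remaining member, Wars2, had overlapping groups and a difference of -0.14.

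Iars2, on chromosome 1 from 185286642 to 185329419 and 32 kb from Eprs, stood at 17.99, 15.04 and 15.04 FPKM in cKO and at 19.8, 18.1 and 16.1 FPKM in WT. The groups overlapped as deposited and were apart after scaling (difference -0.23, limma adjusted p = 0.187). A stretch of 2034 bases of an Iars2 transcript also belongs to Rab3gap2. Sars2 lies on chromosome 7, 54.7 kb from the targeted Hnrnpl, and stood at 3.04, 3.32 and 2.46 FPKM against 4.17, 3.19 and 3.18 FPKM (difference -0.20, SE 0.14, limma adjusted p = 0.535). Whether its place near the targeted gene bears on its level was not tested.

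Hars2 and Hars lie head to head, overlap by 4 bases at their RefSeq starts and share 195 bases of transcript in GENCODE. Hars2 stood at 6.33, 4.41 and 4.09 FPKM in cKO and at 4.38, 3.87 and 5.06 FPKM in WT, and both genes were near equal between the groups, with differences of 0.12 (SE 0.16) for Hars2 and 0.06 (SE 0.16) for Hars.

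Lars2, the mitochondrial leucine enzyme, stood apart from all other members. It was listed at 274.5, 944.1 and 27.9 FPKM in cKO and at 135.3, 280.6 and 324.8 FPKM in WT, while the next highest gene ending in 2 had a mean of 17.01 FPKM. Its lowest and its highest library were both cKO, and the SE of its difference was 1.09 (log2), against at most 0.17 for the other genes ending in 2. The mean FPKM of Lars2 was 1.68 times higher in cKO while its mean log2 value was lower by the difference of -0.24, so even the sign depends on the scale. Limd1, the gene beyond it on chromosome 9, stood between 9.20 and 12.1 FPKM. A stretch of 72 bases in a Lars2 transcript is 98.6% identical to the antisense transcript Gm15564, and whether reads of other RNAs were counted for Lars2 was not tested. Leaving Lars2 out moved the median of the genes ending in 2 from 0.15 to 0.18.

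A ratio of 2 genes within a library does not depend on how that library is scaled, so the cytosolic gene was set over the mitochondrial one for 13 amino acids with a pair of like symbols. The Iars to Iars2 ratio was 1.32, 1.27 and 1.07 in cKO and 0.603, 0.730 and 0.724 in WT. By FPKM the cytosolic transcript was thus the higher one in every cKO library and the lower one in every WT library. Iars shares a stretch with Gm4849 and Iars2 one with Rab3gap2, so the side of 1 depends on how such reads were counted. For Sars over Sars2 the ratio was 7.58, 4.93 and 5.51 against 2.65, 3.41 and 3.31. The differences in log2 ratio were 0.83 and 0.93, each with an exact two-sided permutation p of 0.1, the smallest that 3 against 3 libraries allow.

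Without overlap too were the ratios of Aars to Aars2 (8.08 to 12.6 in cKO and 6.03 to 6.61 in WT), Wars to Wars2 (7.86 to 9.52 and 4.44 to 7.44), Rars to Rars2 (2.99 to 3.42 and 2.18 to 2.50) and Cars to Cars2 (1.32 to 1.78 and 1.02 to 1.22). Wars2 was low, at 1.21 to 2.02 FPKM over all libraries. How often the ratios of other gene pairs separate was not tested. Mars1 over Mars2 overlapped, at 7.01 to 11.9 and 8.13 to 8.38. Both genes of that pair were higher in every cKO library, as were both Cars and Cars2. The ratios for leucine, asparagine, histidine, valine, tyrosine and threonine overlapped as well, with differences from -0.24 for Tars over Tars2 to 0.64 for Lars over Lars2, the last with an SD between libraries set by Lars2.

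**Figure D4:**
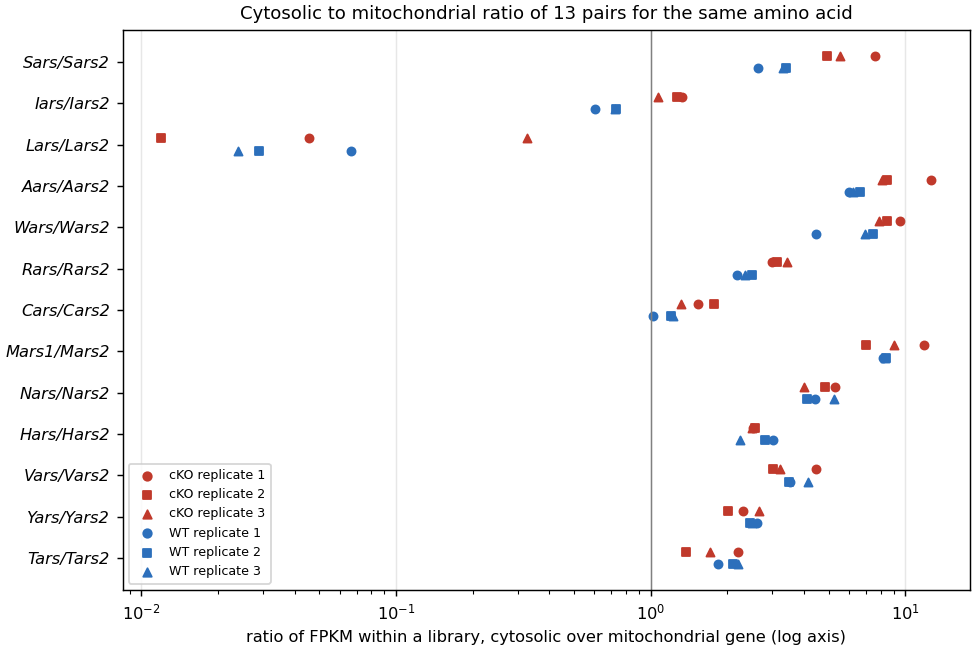
FPKM of the cytosolic gene divided by that of the mitochondrial gene for the same amino acid, within each library (log axis), for 13 pairs ordered by the difference between groups. For Iars over Iars2 the cKO libraries lie at 1.07 to 1.32 and the WT libraries at 0.603 to 0.730, on either side of 1.

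Other genes that act with the synthetases were read from the same fit. As deposited it called 0.0482% of all tested genes higher and 0.0723% lower, and after scaling 0.812% and 0.49%. The scaffold genes of the multi-synthetase complex, Aimp1, Aimp2 and Eef1e1, had differences of 0.25, 0.19 and 0.33, and 0 of 3 passed, as deposited or scaled. Eef1e1 stood at 14.4, 11.3 and 9.61 FPKM in cKO and at 9.13, 10.1 and 7.94 FPKM in WT (limma adjusted p = 0.371). In 0 of the 3 did the groups separate, against 15.5% of tested genes with cKO higher and 7.03% with cKO lower.

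Of 6 genes that make or modify aminoacyl-tRNAs after charging, 0 passed, with a median difference of 0.14. Pstk, the kinase that turns serine on the selenocysteine tRNA into its phosphorylated form, stood at 12.5, 10.8 and 8.07 FPKM in cKO and at 6.68, 6.67 and 5.55 FPKM in WT. It is the next step after Sars on that tRNA, and its groups did not overlap (difference 0.63, SE 0.16, limma adjusted p = 0.166; over the alternatives it ran from 0.0282 to 0.488). Qrsl1, a subunit of the mitochondrial amidotransferase for glutamine tRNA, had a difference of 0.27 with overlap.

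Of 7 proofreading and tRNA-recycling genes 0 passed, with a median of 0.09. Dtd2, an editing enzyme, stood at 13.6, 7.80 and 7.34 FPKM against 5.99, 6.49 and 5.92 FPKM (limma adjusted p = 0.315), and Ptrh2, a peptidyl-tRNA hydrolase, had a difference of 0.09. Of 16 genes of tRNA processing, export and delivery 0 passed and 14 were positive, with a median of 0.23, while 65.2% of all tested genes were positive. All cKO values lay above all WT values in 7 of the 16 and below in 0, against 15.5% and 7.03% of tested genes. Elac2, which trims the 3′ end of tRNA precursors, stood at 12.2, 10.4 and 8.71 FPKM against 7.82, 6.80 and 5.86 FPKM (limma adjusted p = 0.189). Pop5, a subunit of RNase P, Xpot, the export receptor for tRNA, and Tufm, the mitochondrial elongation factor that delivers tRNA, had differences of 0.59, 0.35 and 0.29, each without overlap.

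In the list of ATF4 and genes of the amino acid starvation response, 3 of 32 tested members rose, Asns, Mthfd2 and Nupr1, and 0 fell, against 0.0482% and 0.0723% of tested genes. Asns, which makes asparagine, stood at 25.0, 16.6 and 14.5 FPKM in cKO and at 5.92, 5.80 and 5.92 FPKM in WT (limma adjusted p = 0.0437; over the alternatives it ran from 0.00326 to 0.172). These 3 calls ended without cKO replicate 2 or any 1 of the WT libraries (limma adjusted p from 0.0799 to 0.172), without the filter (0.107 to 0.108) and without the intensity trend (0.0540 for each). After scaling 7 rose, with Chac1, Trib3, Psat1 and Sesn2 added, and 0 fell, against 0.812% and 0.49%. The median of the list was 0.27 as deposited and 0.20 after scaling, beside 0.27 and 0.20 for the cytosolic synthetases. As deposited the list ran from -0.22 to 1.91 and the cytosolic synthetases from 0.06 to 0.76. The list holds genes as unlike as Asns and the kinase genes Eif2ak1 to Eif2ak4, so its median depends on which genes were listed. In 19 members of the list all cKO values lay above all WT values and in 0 below (15.5% and 7.03% of tested genes). After scaling they lay above in 17 and below in 1, Atf3 (13.4% and 12.2%). Atf4 itself stood at 127.9, 98.5 and 98.8 FPKM against 89.1, 84.6 and 85.1 FPKM, without overlap (difference 0.31, SE 0.14, limma adjusted p = 0.373). Relative to the WT mean the median of this list was 0.43, 0.22 and 0.18 in cKO replicates 1, 2 and 3, and 0.21, 0.24 and 0.18 after scaling. The scaled medians of replicates 1 and 2 lay close together, and the called genes differed in their order. Scaled levels in cKO replicates 1, 2 and 3 fell for Asns (21.42, 17.16 and 14.79) and Mthfd2 (6.55, 5.73 and 5.17). Nupr1 was highest in replicate 2 (13.35, 14.87 and 10.33).

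**Figure D5:**
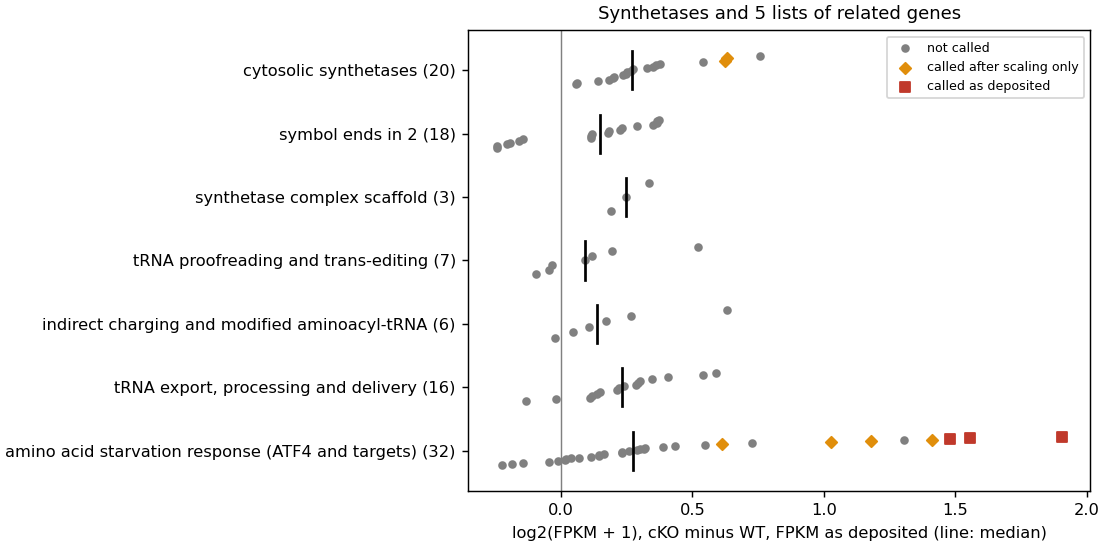
Difference in log2(FPKM + 1) between cKO and WT, as deposited, for each tested gene of the 2 synthetase groups and 5 lists of related genes, with the median of each as a black line. Red squares were called as deposited and orange diamonds only after median-of-ratios scaling, and those of the cytosolic synthetases are Iars and Mars1.

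Set beside the windows printed above, the 4 genes with the word TGATGCAA did not stand together. Among them, Iars had a difference of 0.62, Aars 0.25, Yars 0.20 and Tars 0.18. Mars1 and Sars, chosen as the largest of the matched genes without it in the window, had 0.63 and 0.63. The other matched cytosolic genes without it ran from 0.14 (Kars) to 0.38 (Gars). Whether the word goes with the size of the difference was not tested. A match or its absence in so short a window says nothing of the factor's binding.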

How the data were processed

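RNA sequencing libraries (6) of whole ovary were compared, 3 cKO and 3 WT, grouped by sample title. The authors deposited FPKM values, 1 column per library. The submitters' processing notes list featureCounts 2.0.6, HISAT2 2.2.1 and STAR 2.7.11a and the build mm10, and give them no roles. The program that computed FPKM and the annotation are not given in the sources used here.

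Genes whose mean reached 1 FPKM were tested on log2(FPKM + 1) with limma 3.58.1 (R 4.3.3, intensity trend, two-sided, Benjamini-Hochberg over 12442 genes, called under 0.05). A fold on this scale understates changes of low genes. Permutation tests used SciPy 1.17.1. Depth was estimated from the smallest FPKM steps of 2437 genes with a single transcript, 1500 bp or longer, for fragments of 200 bp. Shared stretches (at least 70 bases at 95% identity) came from BLAST 2.17.0 on GENCODE M21 transcripts. The fit was also run on simulated data with independent noise for each gene. These data held no shift of a whole library like that of cKO replicate 1, so the run says nothing of such a shift. Gene coordinates are from RefSeq, GRCm38.p6.

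Members, lists and tests were chosen with earlier results of these data known. All members enter the counts and medians; the values of 1 of them are not reported here. Values per library are given for the 10 cytosolic genes and the 5 genes ending in 2 with the smallest p, and for Tarsl2, Eprs, Gars, Kars, Iars2 and Hars2. From each related list the called genes, or those with the smallest p, are named. Other genes given per library (Aars2, Sars2, Lars2) were chosen after their values were seen, as were the pairs and the search for TGATGCAA. Alternatives were other pseudocounts, filters, scalings, no trend, leaving out each library and a replicate block.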

Additional observations from a re-analysis of the deposited data

How the results depend on the processing

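The number of tested genes called was 15. It was 34 with a pseudocount of 0.1 FPKM, 5 without a filter, 23 where means had to reach 5 FPKM, 162 after median-of-ratios scaling, 236 after quantile normalization, 5 without the intensity trend, 2 with the replicate block and 2 to 89 with 1 library left out. The count of cytosolic synthetases called was 0, became 2 after median-of-ratios scaling and 3 after quantile normalization (Cars, Iars and Mars1), and was 0 to 1 with 1 library left out, Cars being called without cKO replicate 3. With scaling and 1 library left out it was 0 to 4, and with scaling and the replicate block 0, alternatives chosen after seeing the data. Genes ending in 2 were called in none of these settings. Same-numbered libraries of the groups had correlations of -0.01 to 0.07 in their deviations, and differently numbered ones of -0.07 to 0.03. Correlations so weak cannot tell whether the numbers pair the libraries. The gene Rn45s stood at 0 FPKM in replicate 2 of both groups and at 11790 to 17700 FPKM in the other libraries. Whether same-numbered libraries were handled together was not tested. With scaling, the replicate block gave limma adjusted p of 0.0981 for Iars, 0.118 for Mars1, 0.0742 for Chac1, 0.0883 for Trib3 and 0.0966 for Sesn2. As deposited, it gave 0.0720 for Asns, 0.0540 for Mthfd2 and 0.0179 for Nupr1. The medians kept their sign and moved by less than the spread between libraries (0.21 and 0.09), from 0.15 to 0.37 for cytosolic genes and from 0.08 to 0.23 for those ending in 2. These spreads are large beside the medians themselves (0.27 and 0.15), so a move smaller than the spread is a weak check. Signs turned for Hars (-0.013 after median-of-ratios scaling, with or without the block, -0.048 after quantile normalization, -0.119 to 0.179 with 1 library left out) and Vars (-0.010, with or without the block, -0.054, and -0.067 to 0.130). With 1 library left out they also turned for Hars2 (-0.046 to 0.217), Kars (-0.059 to 0.251), Rars2 (-0.031 to 0.304), Lars2 (-1.38 to 1.14), Aimp2 (-0.052 to 0.393) and Ptrh2 (-0.020 to 0.148). The cause was not tested. Leaving aside scaling with 1 library left out, 520 values of members were computed under the alternatives, of which 501 kept sign and call, 6 became called and 13 turned sign.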
